A study of Mus musculus with 2 samples.

Results

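Oxidative phosphorylation genes were described in a list of C-to-U sites from nuclei of mouse cortex. The members were taken by gene symbol: every symbol that begins with Nduf, Sdhaf, Uqcr, Atp5 or Cox followed by a digit, together with Sdha to Sdhd, Cyc1 and Cycs. The list held 34 such genes with 44 sites, out of 6929 genes with 17755 sites in all. A RefSeq gene table of GRCm38.p6 holds 111 protein-coding genes whose symbols follow the same pattern, so that 77 of them had 0 listed sites.

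The study has a single group of 2 libraries, from cortical nuclei that were labelled with an antibody to NeuN, a neuronal nuclear protein, and flow-sorted. The genotype is APOBEC1-YTH, which joins a cytidine deaminase to a domain that binds N6-methyladenosine (m6A), and the mice received tamoxifen at 20 mg/kg every 24 hours for 5 days from an age of 10 weeks. Collection followed 7 days later, with 50% ethanol as the fixative of the nuclei. The promoter that drives the transgene, the number of animals per library and any library without the editor are not given in the labels. The deposited table has 1 editing fraction per site for both libraries together and no read coverage. Depth is therefore unknown, no spread between libraries could be measured, and every comparison here is a description with no p-value.

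The fusion converts cytidines near a methylated adenosine to uridines, so a C-to-U site serves as a readout of m6A, and the editing level is the share of reads converted at that base. Oxidative phosphorylation is the set of inner-membrane reactions by which mitochondria turn the energy of NADH and succinate into ATP. Electrons pass through complexes I and II to ubiquinone, on to complex III, by way of cytochrome c to complex IV and from there to oxygen, while complex V, the ATP synthase, uses the proton gradient that results. Neurons rely on this pathway to restore ion gradients after firing. Most of its subunits are encoded in the nucleus, and the rest in mitochondrial DNA.

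The labels name the cell type as neuron. Of 8 neuronal marker genes, 5 had a site (16 sites), and Rbfox3, which encodes NeuN, Gad1 and Gad2 had 0. Of the other markers, 5 of 6 for astrocytes (175 sites), 6 of 6 for oligodendrocytes (44), 2 of 4 for microglia (12) and 4 of 4 for endothelium and pericytes (47) had a site. The astrocyte marker Gfap and the microglial markers P2ry12 and C1qa had 0. Over all protein-coding genes, 28.2% had a site. The marker lists were chosen with earlier results of these data known. Respiratory chain genes are transcribed in all of these cells. How much of the sites described here came from each cell type was not tested, and in pooled nuclei fewer cells of a type cannot be told apart from less RNA per cell.

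For 4 member sites the bases around the edited cytidine could be read, because the site lies inside a promoter sequence of the RefSeq table (GRCm38.p6, 250 bases before to 50 after a gene start). Only for Cox20 is it a promoter of the gene itself. The Cox20 site lies 24 bases after a RefSeq start of the gene but 1082 bp from the 5′ end of the span. The sites of Ndufa8, Ndufaf4 and Atp5k lie 66, 210 and 65 bases after their own gene's start and were read from the promoters of the neighbouring genes Morn5, Gm46848 and Gm34319, which run in the opposite direction. The sequences show the bases converted near a RefSeq start of each of these genes. The edited C is in capitals, with 14 bases on each side, on the strand of the gene:
Cox20 (chr1:178319163-178319191, plus strand): ggtgcccatggcggCcgccccggagcccc
Ndufa8 (chr2:36049258-36049286, minus strand): gacacggccgagggCacctggtcagggtc
Ndufaf4 (chr4:24898279-24898307, plus strand): acctcctgcaggagCaccggagtcgtgag
Atp5k (chr5:108434320-108434348, minus strand): ttcaggtctctccaCtcatcaaggtgaat

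The listed base was a C on the listed strand in each of the 4, as it was for 255 of the 255 listed sites of any gene that fall in such a promoter. The base before the edited C was G in Cox20, Ndufa8 and Ndufaf4 and A in Atp5k; over 254 sites with that base in view it was G at 130, C at 55, A at 42 and T at 27. The 18 words of 5 bases that make up the m6A consensus (A, G or T, then A or G, then AC, then A, C or T) were searched on the transcript strand. They occurred in 0 of the 4 windows of 29 bases, against 30.5% of the 220 listed sites with a complete window and 34.7% of windows of the same length centred on any C of the promoters. Of the 32851 promoter sequences, 98.4% held at least 1 of the words. The absence of these letters from 4 short windows says nothing about methylation farther along the RNA. Of the 34 genes, 28 matched the promoter table by symbol, and for 28 of these 28 the RefSeq strand was the strand of the listed sites.

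Sites in oxidative phosphorylation genes were few per gene, and their median level was close to that of the whole list. Of the 34 genes, 26 (76.5%) had 1 site, 6 had 2 and 2 had 3, whereas 49.2% of all genes with a site had 1 and the gene richest in sites had 45. The mean was 1.29 sites per gene with a site, against 2.56 over the whole list. That mean rose with gene span in members, and in other protein-coding genes it was higher at 10 kb or more than below 10 kb. In members and other protein-coding genes it was 1.2 and 1.83 under 5 kb and 1.27 and 1.75 from 5 to 10 kb. From 10 to 20 kb it was 1.33 and 2.12, and at 20 kb or more 1.5 and 3.06. Editing levels ranged from 1.01% to 18.2%, with a median of 3.03% and quartiles of 1.74% and 5.22%. Over all 17755 sites the median was 3.64% and the quartiles were 2.01% and 6.90%. Levels of 10% or more were reached by 4 of 44 sites (9.09%), against a background of 14.9%, and 0 sites reached 20%. Levels under 2% made up 34.1% of the member sites (15) and 24.6% of all sites. Without coverage, a low level cannot be separated from a deeper read depth that allows it to be called.

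**Figure D1:**
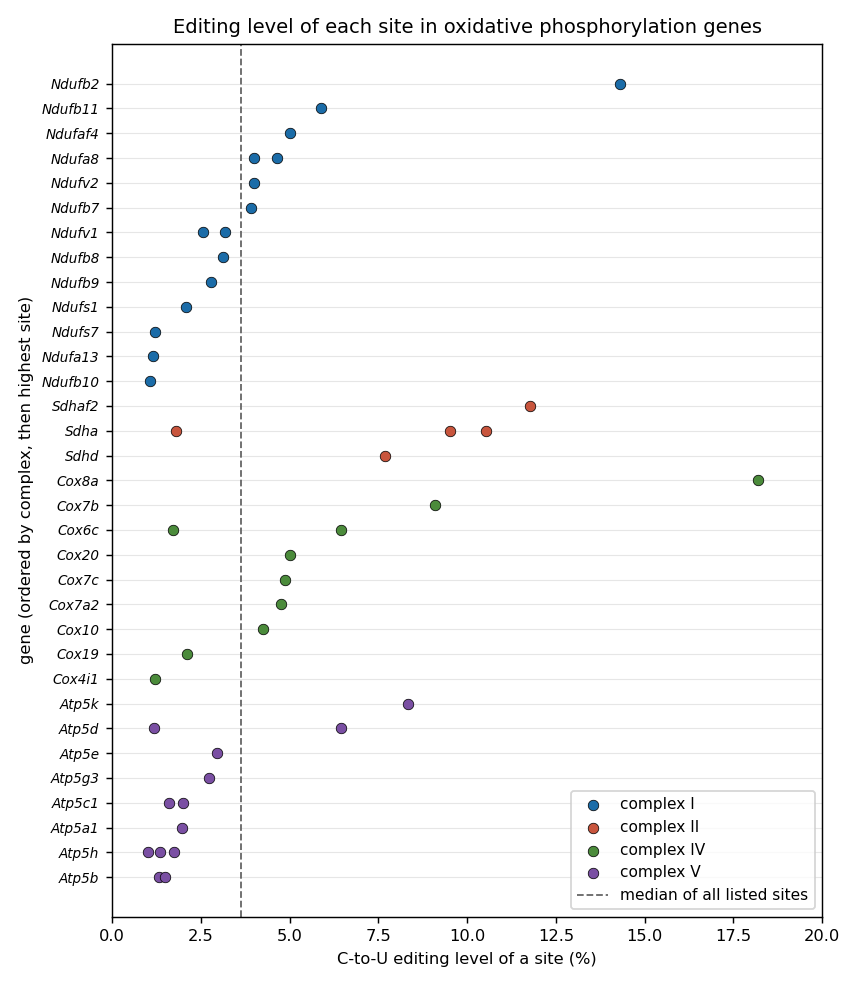
Editing level in percent (horizontal axis) of 43 of the 44 sites, 1 row per gene, coloured by complex; the dashed line is the median of all listed sites, 3.64%. The sites of complex II lie mostly to the right of the line and those of complex V mostly to the left, and Cox8a at 18.2% is the highest point.

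**Figure D2:**
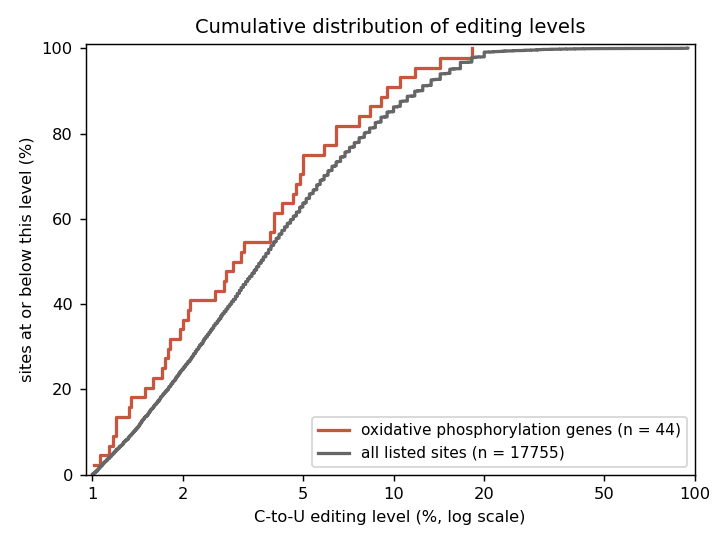
Cumulative share of sites (vertical axis, percent) at or below an editing level (horizontal axis, percent, log scale) for the 44 sites of oxidative phosphorylation genes and for all 17755 listed sites. The member median of 3.03% and the list median of 3.64% lie close together, and the member curve ends at 18.2% while the list runs on to 94.9%.

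The share of the pathway with a site was near the background. Of the 111 genes, 34 (30.6%) had at least 1 site, against 28.2% of 21896 protein-coding genes, so the count as such sets the pathway apart very little. The order of these shares turned with the minimum level: 23.4% of members and 26.2% of protein-coding genes had a site at 2% or more, and 10.8% and 17.7% had one at 5% or more. The members are short, with a median gene span of 7345 bp against 17149 bp for all protein-coding genes. Within the same length class the picture differed by class. Under 5 kb, 10 of 36 members (27.8%) had a site, against 8.40% of 5011 other protein-coding genes. From 5 to 10 kb the shares were 36.6% of 41 members and 20.0% of 2849 other genes. From 10 to 20 kb they were 18.8% of 16 members and 26.2% of 3905 other genes, and at 20 kb or more 33.3% of 18 members and 41.2% of 10020 other genes. Members lay above the other genes of their class only below 10 kb, and this difference was not tested. Median editing levels went both ways: 3.42% in members and 4.17% in other genes under 5 kb, 2.56% and 4.08% from 5 to 10 kb, 4.33% and 3.96% from 10 to 20 kb, and 4% and 3.45% at 20 kb or more. In order of class, the member medians rest on 12, 19, 4 and 9 sites. The other genes were counted whether or not the sorted nuclei transcribe them, and the list gives no expression level.

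**Figure D3:**
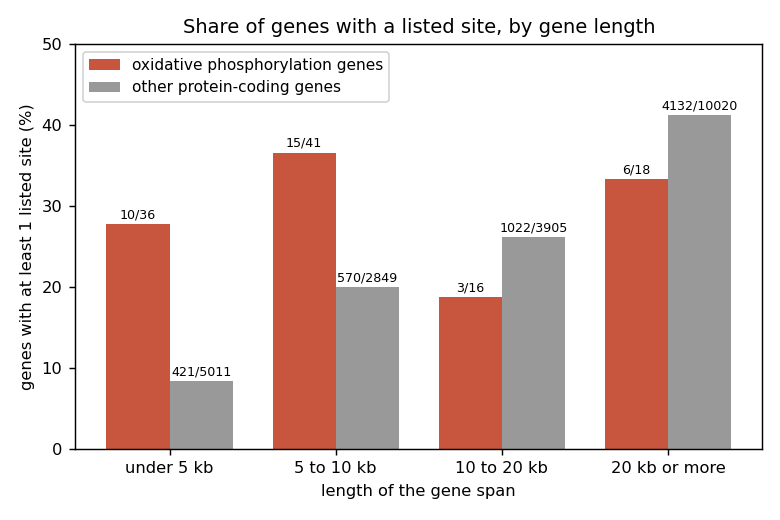
Percent of genes with at least 1 listed site (vertical axis) in 4 classes of gene span, for oxidative phosphorylation genes and other protein-coding genes; the fractions above the bars are genes with a site over all genes of the class. The members stand above the other genes in the 2 short classes (27.8% against 8.40% and 36.6% against 20.0%) and below them in the 2 long ones.

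Ribosomal protein genes, another set of short genes used by every cell, can be set beside the members. A site was listed for 34 of 111 oxidative phosphorylation genes (30.6%), with 44 sites at a median of 3.03%, and for 34 of 81 ribosomal protein genes (42.0%), with 45 sites at a median of 2.56%. The share over all protein-coding genes was 28.2%. Median spans were 7345 bp for oxidative phosphorylation genes and 3175 bp for ribosomal protein genes, and the 2 sets were not compared at like length.

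The complexes differed in how many of their genes had a site. The division into roles was made from textbook knowledge with the values of these genes already known, and it carries no test. Complex V had sites in 8 of 17 genes (47.1%), complex II in 3 of 8 (37.5%), complex IV in 9 of 27 (33.3%) and complex I in 14 of 45 (31.1%), assembly factors included. Complex III had sites in 0 of 9 genes, and Cycs, which encodes cytochrome c, had 0. These are to be read against the 28.2% of protein-coding genes with a site. Median levels were 9.52% over 5 sites in complex II, 4.82% over 10 in complex IV, 3.16% over 16 in complex I and 1.75% over 13 in complex V. Complex V thus had the most genes with sites for its size and the lowest levels, with 8 of 13 sites under 2%. Sites of a gene share a transcript, the medians rest on as few as 5 sites, and the number of reads behind each level is unknown.

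**Figure D4:**
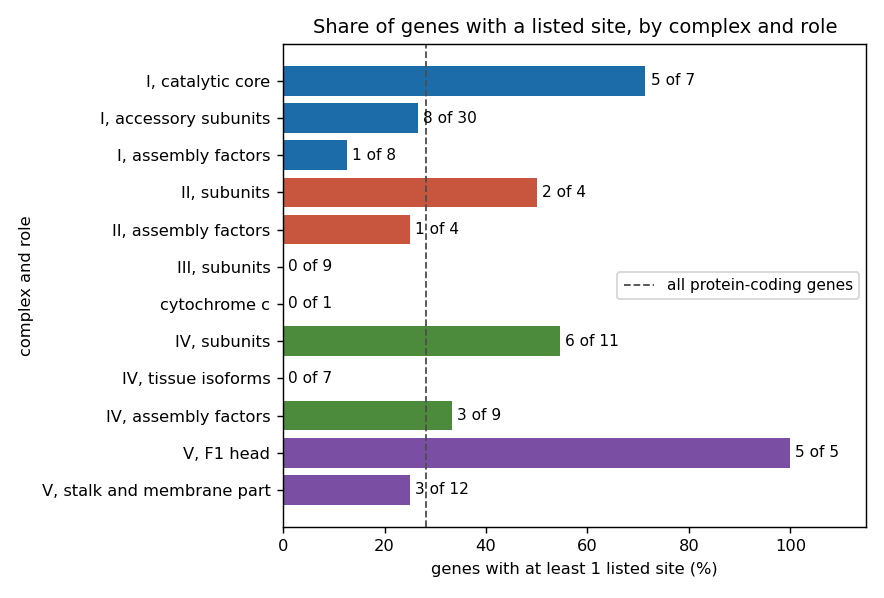
Percent of genes with at least 1 listed site (horizontal axis) by complex and role, with the number of genes with a site out of all genes of the role beside each bar; the dashed line is the share of all protein-coding genes, 28.2%. The F1 head of complex V (5 of 5) and the catalytic core of complex I (5 of 7) have the longest bars, and complex III, cytochrome c and the tissue isoforms of complex IV have 0; 4 genes outside these roles, also with 0, are not drawn.

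Complex I (NADH dehydrogenase) takes electrons from NADH and pumps protons. Of its 7 nuclear genes for the catalytic core, 5 had a site, against 8 of 30 genes for accessory subunits and 1 of 8 for assembly factors. These shares were 71.4%, 26.7% and 12.5%, beside 28.2% of all protein-coding genes. Ndufv1, which encodes the subunit that binds NADH and flavin (chromosome 19, 4007499 to 4012755), had 2 sites at 3.19% and 2.56%. Its partner in the electron input module, Ndufv2, had 1 site at 4%, and Ndufs1, whose product carries iron-sulfur clusters of the same module, had 1 at 2.08%. Ndufs7 encodes a subunit close to the ubiquinone pocket and had 1 site at 1.20%. None of the 6 core sites exceeded 4%.

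Accessory subunits surround the core and are needed for its stability. Those named Ndufb, which build the membrane arm, had a site in 6 of 11 genes (54.5%), and those named Ndufa in 2 of 13 (15.4%). The share over all protein-coding genes was 28.2%. The Ndufb sites were 1 per gene: 14.3% in Ndufb2, 5.88% in Ndufb11, 3.90% in Ndufb7, 3.12% in Ndufb8, 2.78% in Ndufb9 and 1.06% in Ndufb10. The Ndufb2 site (chromosome 6, position 39603091) was the only one of the 44 outside the RefSeq span of its gene, 3248 bp beyond the 3′ end at 39599843, and its assignment to Ndufb2 is the authors' own. Among the Ndufa genes, Ndufa8 had 2 sites 12635 nt apart, at 4% close to the 5′ end and 4.65% close to the 3′ end. Ndufa13, also known as a regulator of cell death, had 1 site at 1.14%. Ndufc1 and Ndufc2 and the accessory genes Ndufs4, Ndufs5, Ndufs6 and Ndufv3 had 0 sites. The assembly factor gene with a site was Ndufaf4, at 5%, 210 bp from its 5′ end.

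Complex II (succinate dehydrogenase) is also an enzyme of the tricarboxylic acid cycle and is encoded wholly in the nucleus. Its catalytic flavoprotein gene Sdha (chromosome 13, 74322255 to 74350240, minus strand) had 3 sites. A pair at 10.5% and 9.52% lay 64 nt apart, 475 and 539 bp from the 3′ end, and the third, at 1.79%, lay 16822 bp from it. Both sites near the end were above the one in the body of the gene, but the number of reads behind each level is unknown. Sdhaf2, whose product attaches the flavin to the Sdha protein, had 1 site at 11.8% (chromosome 19, position 10501097), 585 bp from the 3′ end. Sdhd, a membrane anchor subunit, had 1 site at 7.69%. The iron-sulfur subunit gene Sdhb, the other anchor gene Sdhc and the assembly genes Sdhaf1, Sdhaf3 and Sdhaf4 had 0 sites. Of the 4 member sites at 10% or more, 2 were in complex II.

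Complex III (ubiquinol-cytochrome c reductase) passes electrons from ubiquinol to cytochrome c. Its Rieske iron-sulfur protein gene Uqcrfs1, the cytochrome c1 gene Cyc1, the core protein genes Uqcrc1 and Uqcrc2 and the small subunit genes Uqcrb, Uqcrh, Uqcrq, Uqcr10 and Uqcr11 had 0 sites, as did Cycs. Their median span was 4775 bp, shorter than that of any other complex. The list stops at 1% and gives no coverage. These genes had no listed site, and whether their RNA was read deeply enough to show a site is unknown.

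Complex IV (cytochrome c oxidase) hands the electrons to oxygen. Of 11 subunit genes of the form found in most tissues, 6 (54.5%) had a site, against 28.2% of all protein-coding genes. Ndufa4 is counted here because its product is a subunit of this complex despite its name, and it had 0 sites. The highest level of all members was in Cox8a, a small membrane subunit gene (chromosome 19, 7215158 to 7217616, minus strand), with 1 site at 18.2%, 76 bp from the 3′ end. Next within complex IV was Cox7b with 1 site at 9.09%, 84 bp from the 5′ end. Cox6c (chromosome 15, 35931976 to 35938246, minus strand) had 2 sites 51 nt apart, at 6.45% and 1.71%, 31 and 82 bp from the 3′ end. Cox7c had 1 site at 4.88% and Cox7a2 1 at 4.76%, and the position in Cox7a2 also lies inside the span of the pseudogene Gm51685, so that the gene of origin is uncertain. Cox4i1, a subunit at which ATP regulates the enzyme, had 1 site at 1.20%. Sites of this complex spread over both ends of the genes and over most of the range of levels.

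Several complex IV subunits have an alternative form with restricted expression. The 7 genes for such forms, which serve mainly lung (Cox4i2), muscle and heart (Cox6a2, Cox7a1, Cox8b) or testis (Cox6b2, Cox7b2, Cox8c), had 0 sites. The subunit genes Cox5a, Cox5b, Cox6a1 and Cox6b1 had 0 as well. The 7 genes for alternative forms had a median span of 1505 bp. A site was listed for 28.2% of all protein-coding genes and for 8.40% of other protein-coding genes under 5 kb. Of 9 genes for assembly factors, 3 had a site. Cox10, which makes the haem precursor of the enzyme, had 1 site at 4.26%, 7857 bp from the 5′ end of a span of 116846 bp. Cox20, a chaperone of the mitochondrially encoded second subunit, had 1 site at 5%, and Cox19, a factor in copper delivery, had 1 at 2.11%. The supercomplex factor gene Cox7a2l had 0 sites.

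Complex V (ATP synthase) consists of a soluble F1 head that makes ATP and a membrane part through which protons flow. Each of the 5 genes for the head had a site, against 3 of 12 (25%) for the stalk and the membrane part. Over all protein-coding genes the share was 28.2%, close to that of the stalk and membrane part. The catalytic beta subunit gene Atp5b had 2 sites at 1.32% and 1.5%, 4986 nt apart, and the alpha subunit gene Atp5a1 had 1 at 1.96%. The gamma subunit gene Atp5c1, which encodes the rotating shaft, had 2 sites 51 nt apart at 2% and 1.59%. Atp5d, the delta subunit gene, had sites at 1.17% and 6.45%, the higher one 25 bp from the 3′ end, and Atp5e, the epsilon subunit gene, had 1 at 2.94%. Except for that site of Atp5d, the 8 sites of the head were all under 3%.

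In the stalk and membrane part, Atp5h (chromosome 11, 115415691 to 115419919, minus strand) had 3 sites within 31 nt, at 1.75%, 1.35% and 1.01%, the last of them the lowest value among the members. They lay in the middle of the span, 2191 to 2222 bp from the 3′ end. Atp5g3, a gene for the proton-carrying c ring, had 1 site at 2.74%; the mature c subunit is also encoded by Atp5g1 and Atp5g2, which had 0. Atp5k, which encodes subunit e at the dimer interface, had 1 site at 8.33%, 65 bp from the 5′ end. The remaining 7 genes of this part of the enzyme, among them Atp5o for the stalk subunit that binds the head and Atp5pb for the stator, had 0 sites. RefSeq lists pseudogenes named after 3 members with sites, 4 for Atp5k and 1 each for Atp5c1 and Cox7c, so reads of these genes could be shared with copies and their levels are uncertain.

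Along the genes, 23 of the 43 sites inside a gene span lay within 1 kb of an end. The other 20 (46.5%) lay in neither stretch, against 76.3% of all sites inside spans. Both end stretches make up a larger part of these short genes, as given below. At the 3′ end, 14 (32.6%) lay in the last 1 kb, a stretch that makes up on average 17.7% of the span over these sites; over all sites inside spans, 16.1% lay in a last 1 kb that makes up 4.99%. In the last 5 kb lay 32 of the 43 (74.4%), against 49.7% of all sites, but for genes this short the last 5 kb make up 65.8% of the span. In the first 1 kb lay 9 sites (20.9%), each in a different gene, against 8% of all sites; the first 1 kb makes up on average 17.7% of the span over the member sites and 4.99% over all sites, so the member share is little above that of an even spread. Among genes under 5 kb the shares in the first 1 kb were 33.3% in members and 26.1% in other genes, from 5 to 10 kb 22.2% and 12.4%, from 10 to 20 kb 25% and 7.87%, and at 20 kb or more 0% and 5.96%. The member shares rest on few sites. They count 4 sites in each of the 2 short classes, 1 of 4 sites from 10 to 20 kb and 0 of 9 at 20 kb or more. The 9 member sites in the first 1 kb were in Atp5k, Ndufa8, Cox19, Cox7b, Ndufb7, Ndufaf4, Ndufb11, Ndufb8 and Cox7c, between 65 and 665 bp from the annotated start. Levels of member sites had a median of 3.80% in the last 1 kb (n = 14 sites, 1.06% to 18.2%), 4.88% in the first 1 kb (n = 9, 2.11% to 9.09%) and 1.98% between them (n = 20, 1.01% to 7.69%). Over all sites inside spans the medians were, in the same order, 4.65%, 3.33% and 3.39%. The lower median of the member sites in the middle was not tested, and 7 of these 20 sites come from Atp5h, Atp5c1 and Ndufv1. The gene table holds no exon borders, so sites could not be placed in exons, introns or UTRs.

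**Figure D5:**
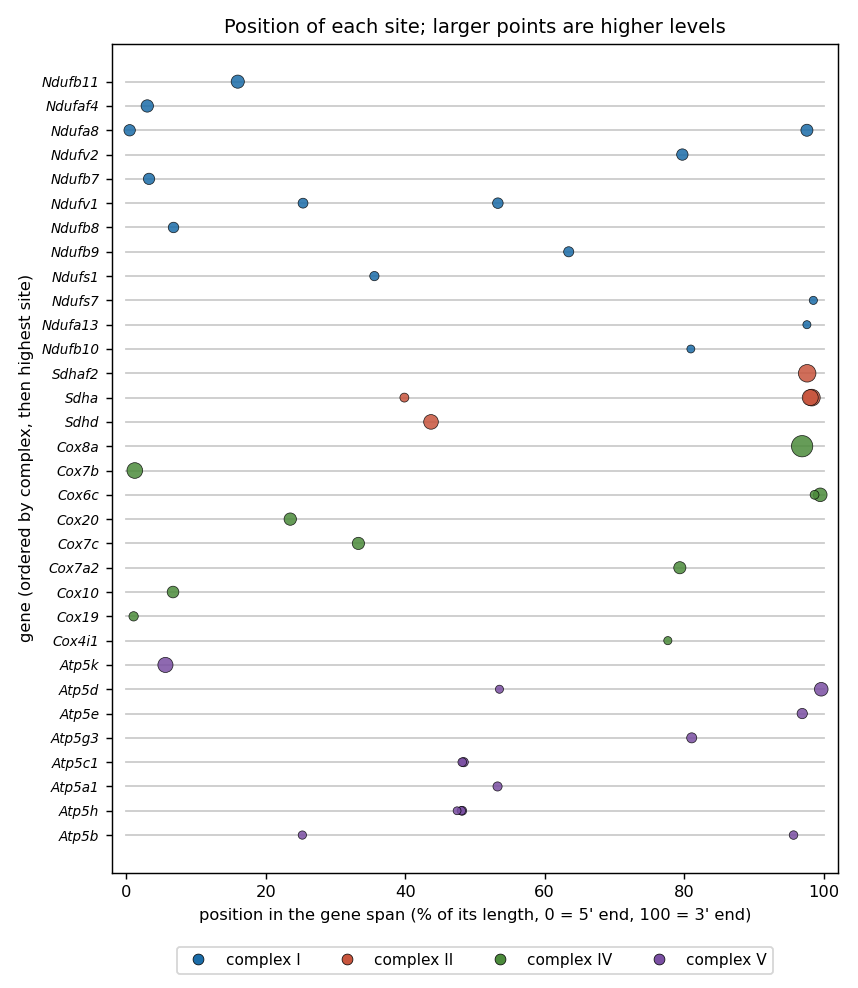
Position of 42 of the 43 sites inside gene spans, in percent of the span from the 5′ end (0) to the 3′ end (100), 1 row per gene, coloured by complex; point area grows with editing level. Points gather at the 3′ end (Cox8a, Sdha, Sdhaf2, Cox6c, Atp5d) and at the 5′ end (Ndufa8, Cox7b, Cox19, Ndufb7, Ndufaf4), and the 3 sites of Atp5h fall in the middle.

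Few sites had a close neighbour. Another site of the same gene lay within 100 nt for 9 of the 44 sites (20.5%), in Atp5h, Sdha, Cox6c and Atp5c1, against 22.8% of all sites. Of the 34 genes, 23 were transcribed from the minus strand and 11 from the plus strand. Minus-strand genes made up 20 of the 28 members with a site and a RefSeq strand, 42 of the 62 without a site, and 62 of these 90 together (68.9%).

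The 13 subunits encoded in mitochondrial DNA had 0 listed sites, and the list as analysed holds 0 positions on the mitochondrial chromosome. Of 36 further assembly factor genes, 12 (33.3%) had a site, against 28.2% of all protein-coding genes. The median level of these assembly factor genes was 4.62% over 19 sites. Among these, Ttc19, an assembly factor of complex III, had 6 sites with a mean of 6.03% (2.60% to 11.8%), more than any of the 34 members. Cmc1 had 2 sites at 10.7% and 11.1%, Oxa1l, which encodes the inner-membrane insertase, had 2 at 3.45% and 18.2%, and Ecsit 1 at 15.4%. Of 13 genes for the synthesis of coenzyme Q, the carrier between complexes I or II and III, 4 had a site: Coq5 with 2, Coq9 with 2, Pdss1 with 1 at 16.7% and Coq8a with 1 at 8.70%. The list's median was 6.55% over 6 sites.

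Upstream of the chain, 8 of 20 genes (40.0%) of pyruvate dehydrogenase and the tricarboxylic acid cycle had a site, with a median of 3.65% over 16 sites. Ogdh, for a subunit of the oxoglutarate dehydrogenase complex, had 5, the citrate synthase gene Cs 3, and Idh3b and Pcx 2 each. Of 17 glycolysis genes, 10 (58.8%) had a site, with a median of 2.41% over 27 sites, led by the hexokinase gene Hk1 with 7 and the phosphofructokinase gene Pfkl with 6. Of 16 genes for the exchange of nucleotides, phosphate and ions across the mitochondrial membranes, 9 (56.3%) had a site, with a median of 2% over 15 sites. The outer-membrane channel gene Vdac2 had 4, and Slc8b1 and the phosphate carrier gene Slc25a3 had 2 each. The shares of these lists stand beside 28.2% of all protein-coding genes. Their median spans were, in the same order, 24507, 16600 and 18349 bp. Of other protein-coding genes, 26.2% had a site from 10 to 20 kb and 41.2% at 20 kb or more.

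Genes for mitochondrial fusion, fission and transport had a site in 13 of 17 cases (76.5%), with a median of 4.17% over 29 sites. The transport adaptor genes Trak1 and Trak2 had 6 and 5 sites at mean levels of 3.10% and 10.2%, and the fusion genes Opa1 and Mfn1 had 3 each. These genes have a median span of 46811 bp, against 7345 bp for the oxidative phosphorylation genes. A site was listed for 28.2% of all protein-coding genes and for 41.2% of other protein-coding genes of 20 kb or more. Of 18 regulators of mitochondrial biogenesis and of mitochondrial DNA expression, 6 (33.3%) had a site, with a median of 5.54% over 10 sites. Gabpa, a transcription factor known to act on respiratory chain promoters, had 3 sites with a mean of 7.35%, the helicase gene Twnk and the coactivator gene Pprc1 had 2 each and Gabpb2 1 at 14.3%. Genes with a site in the nuclear lists carried from 1 to 7 sites each, but at most 2 in the coenzyme Q list and 3 among the regulators. No oxidative phosphorylation gene had more than 3. The median spans of these lists ran from 9034.5 to 46811 bp, longer than that of the members. Site counts of these lists were not compared at like length.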

How the data were processed

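C-to-U editing was measured in 2 libraries of NeuN-sorted nuclei from mouse cortex. Bullseye called the sites, per the series description, and STAR 2.7.5 and the build mm10 are named in the submitters' processing notes. The deposited table gives 1 editing fraction per site for both libraries together, printed here as a percent; the control, the coverage minimum and the way of pooling were not stated. Positions are 1-based.

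Members were taken by symbol, and genes were matched by symbol to RefSeq spans of GRCm38.p6 (the same assembly as mm10). Distances run to the ends of the span on the listed strand. Shares and medians were computed with pandas 2.3.3 in Python 3.11.15, and the distance code was tested on invented sites. No test was run, because 1 pooled list has no replicate error. Members, roles and lists were chosen with earlier results of these data known. Every member with a site is named, and up to 4 genes of each other list by number of sites, ties to the higher mean, except for items that are not reported here. Alternatives were other minimum levels, members, units and stretches.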

Additional observations from a re-analysis of the deposited data

How the results depend on the processing

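Of 39 recomputed values, 28 stayed within the exact binomial 95% interval of the share, the order-statistic 95% interval of the median or 1.5 times the count, and 11 moved. All are counts, shares or medians of levels, which cannot change sign. The share of members with a site, above that of protein-coding genes in the list as deposited (30.6% against 28.2%), was below it at 2% or more (23.4% against 26.2%). With only sites at 2% or more there were 29 member sites, a median of 4.76% (4.88% over all sites) and 2 sites with a neighbour within 100 nt. With only sites at 5% or more, 13 sites in 12 genes were left (10.8% of the 111 genes, against 17.7% of protein-coding genes), with a median of 8.33% (8.70% over all), 30.8% at 10% or more (40.0% over all) and 2 sites with a near neighbour; fewer sites are counted by construction. The share of sites near the 3′ end was 41.9% for the last 2 kb and 32.6% for the last 1 kb, which are shorter stretches. Leaving out the members with named pseudogenes, Cox7a2 and the site outside its gene span, chosen after seeing the data, gave 38 sites and a median of 2.86%. In each alternative run on all complexes, 4 complexes had a site. No paired analysis was possible because both libraries share 1 value per site, and for the same reason neither library could be left out. Depth is unknown and limits every level.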
